A study of Homo sapiens with 12 samples.

Results

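TRHDE and TRHDE-AS1 are a pair of genes on opposite strands of human chromosome 12, and they were followed here as 2 members among the 58735 genes listed in the count tables. They were chosen as an overlapping sense and antisense pair whose counts in the stranded and unstranded tables differed between knockout and wild type, so the knockout values of the pair describe what selected it and carry no test. The RNA came from HAP1, a near-haploid adherent cell line derived from a chronic myelogenous leukemia, either wild type (WT) or with SETDB1 knocked out (KO); SETDB1 encodes a histone H3 lysine 9 methyltransferase. All cells were cultured alike in IMDM with serum, and no other allele or agent is named in the labels. Total RNA went through a non-directional library kit (3 WT and 3 KO libraries), in which the strand of the RNA is lost, or through a directional kit of the same maker (3 WT and 3 KO libraries), in which it is kept. The titles call the 3 libraries of a group biological replicates, and whether they came from separate cultures, or whether the KO is 1 clone, is not given in the sources used here, so p-values measure the spread between these libraries, which may be technical.

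TRHDE encodes the thyrotropin-releasing hormone degrading enzyme, also called pyroglutamyl peptidase II, a zinc metallopeptidase of the M1 aminopeptidase family that is anchored in the plasma membrane with its active site outside the cell. It is known for cleaving thyrotropin-releasing hormone (TRH), a tripeptide of the hypothalamus that drives the release of thyrotropin from the pituitary, and it is best known from brain, pituitary and liver. Antisense RNAs such as TRHDE-AS1 are transcribed from the other strand of a gene, often from a start site near that of the coding gene, and most have no assigned function.

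In GENCODE 29 on GRCh38, TRHDE (ENSG00000072657) spans chr12:72087266-72670757 on the plus strand, with 7 transcripts. TRHDE-AS1 (ENSG00000236333) spans chr12:72253508-72274907 on the minus strand, with 4 transcripts, so that its whole 21400-base span lies inside the 583492-base span of TRHDE. Exons of the pair coincide over a single stretch of 793 bases at chr12:72272765-72273557, within exon 1 of TRHDE-201, the long protein-coding transcript, most of which is coding there. This stretch makes up 6.64% of the exon bases of TRHDE and 9.03% of those of TRHDE-AS1. A read on it cannot be given to either gene when strand is ignored, which leaves 11157 exon bases of TRHDE and 7988 of TRHDE-AS1 that the pair does not share. The remaining exons of TRHDE-AS1 lie upstream of TRHDE-201 or in its first intron, inside a long intron of TRHDE-203. TPH2, which encodes the neuronal tryptophan hydroxylase and overlaps the start of TRHDE-203 on the same strand and shares 105 of those TRHDE exon bases, had no read in any non-directional library.

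**Figure D1:**
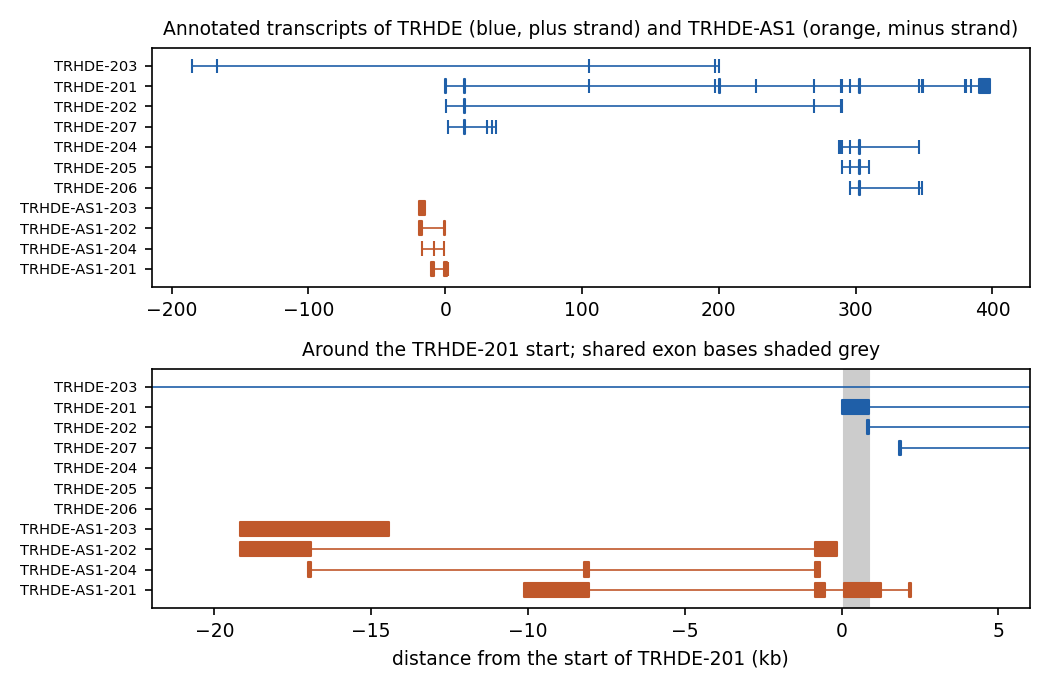
Annotated transcripts of TRHDE (blue, plus strand, 7 transcripts) and TRHDE-AS1 (orange, minus strand, 4 transcripts), plotted by distance in kb from the start of TRHDE-201, over the whole gene in the upper panel and around that start in the lower panel; boxes are exons and lines introns. The grey band marks the 793 exon bases that both genes hold, at the start of TRHDE-201.

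The sequences just before the start sites of the pair are shown because the RefSeq start sites of both genes lie in the same small region. They are the 250 bases upstream of the RefSeq start of each gene in GRCh38.p14, written 5′ to 3′ on the strand of the gene, with matches to GGGCGG (or CCGCCC on the other strand) in capitals. That of TRHDE is chr12:72272120-72272369 on the plus strand, and that of TRHDE-AS1 is chr12:72273510-72273759 on the minus strand. The RefSeq start sites are 1139 bases apart, with that of TRHDE-AS1 downstream of that of TRHDE and inside exon 1 of TRHDE-201, so the pair is transcribed towards each other across that stretch.
TRHDE: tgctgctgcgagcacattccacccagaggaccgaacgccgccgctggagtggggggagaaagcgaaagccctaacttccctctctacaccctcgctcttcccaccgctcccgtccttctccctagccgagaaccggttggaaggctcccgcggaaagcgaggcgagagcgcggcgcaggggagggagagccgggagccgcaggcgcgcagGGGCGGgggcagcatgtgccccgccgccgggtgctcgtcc
TRHDE-AS1: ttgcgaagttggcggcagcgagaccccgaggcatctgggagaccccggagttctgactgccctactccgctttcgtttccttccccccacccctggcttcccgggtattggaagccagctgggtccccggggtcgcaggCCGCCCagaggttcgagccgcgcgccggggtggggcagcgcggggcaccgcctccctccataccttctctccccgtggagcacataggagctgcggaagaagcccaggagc
Both windows were rich in G and C, at 70.4% for TRHDE and 68.8% for TRHDE-AS1, against a median of 58.0% over 35116 RefSeq promoters of the same length. They held 27 and 21 CpG dinucleotides, where the median promoter held 11. GGGCGG occurred once in each window and in 42.6% of all promoters. CCAAT (or ATTGG) occurred once in the TRHDE-AS1 window, not in that of TRHDE, and in 32.0% of all promoters. TATAAA (or TTTATA) was found in neither window and in 10.7% of all promoters. CACGTG was likewise in neither window, against 6.34% of all promoters. These 4 motifs were searched on both strands and do not overlap one another in letters; a match is a description of the sequence only.

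The depth and the reading of the tables bear on every value of the pair. The non-directional libraries held 8921959 to 10199215 gene counts and the directional libraries 532021 to 676691, so 3 counts, taken as the smallest abundance the depth can show, correspond to 0.294 to 0.336 and to 4.43 to 5.64 counts per 1000000 (CPM); intervals and floors here cover counting error only. Between 80.3% and 80.4% of the listed reads fell in genes in the non-directional tables, but only 5.23% to 5.30% in the directional tables, where 94.6% were placed in no gene. The targeted gene was measured first: SETDB1 held 651, 543 and 519 reads in the WT and 118, 106 and 118 in the KO non-directional libraries, with a log2 fold change of -2.39 (SE 0.08, adjusted p = 7.0e-43, edgeR quasi-likelihood test). In the directional tables it held 4 to 17 reads in every library, with an adjusted p of 0.256 by the same test. All 3 KO libraries of the non-directional kit were thus below all WT libraries in SETDB1. The directional tables held few reads of it, and the strand they count was not tested, so they gave no check of their labels.

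Because the pair overlaps on opposite strands, the strand that the directional tables count was examined for the pair and its surroundings. For each gene the WT reads per 1000000 listed reads in the directional tables were expressed as a percentage of those in the non-directional tables. Among 3864 genes with at least 50 WT reads and no other gene on their span, the median was 0.555% and the 95th percentile 2.87%. Among 5081 genes that share an exon with a gene on the opposite strand, the median was 1.31% and the 95th percentile 116%. A gene standing alone on its span thus kept few of its reads in the directional tables. TRHDE stood at 5.29% in WT, from 155 reads with the first kit and 8 with the second. TRHDE-AS1 stood at 93.2%, from 87 and 79 reads. That value was reached by 11 of the 3864 genes with no other gene on their span, and by 310 of the 5081 genes that share an exon with an opposite-strand gene.

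Among the genes around the pair the difference between the kits also depended on the gene. RAB21, a small GTPase of endosomes, had 2354 WT reads with the non-directional and 9 with the directional kit, or 0.392% on the scale above, and TMEM19, a transmembrane protein gene with no gene opposite, had 587 and 2. ZFC3H1, which encodes a zinc finger protein of nuclear RNA decay, overlaps THAP2, a THAP zinc finger gene on the opposite strand. ZFC3H1 held 1338 and 22 WT reads in the 2 kits, and THAP2 188 and 191. In each of these overlapping pairs 1 gene was thus counted at a similar number in both kits. Whether those directional reads came from that gene or from the gene opposite was not tested. Across 116 annotated pairs of a gene and its -AS1 gene with at least 50 WT reads each, the antisense kept the larger percentage in 77, with medians of 8.11% for the antisense and 1.72% for the host, and 30 of the 116 antisense genes were at or above the percentage of TRHDE-AS1. The strand setting of the counting is not given, so the directional tables may count the strand opposite to the named gene. Which strand the 79 directional reads named TRHDE-AS1 came from was not tested. They may come from the TRHDE strand and cannot be read as the level of the antisense RNA.

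**Figure D2:**
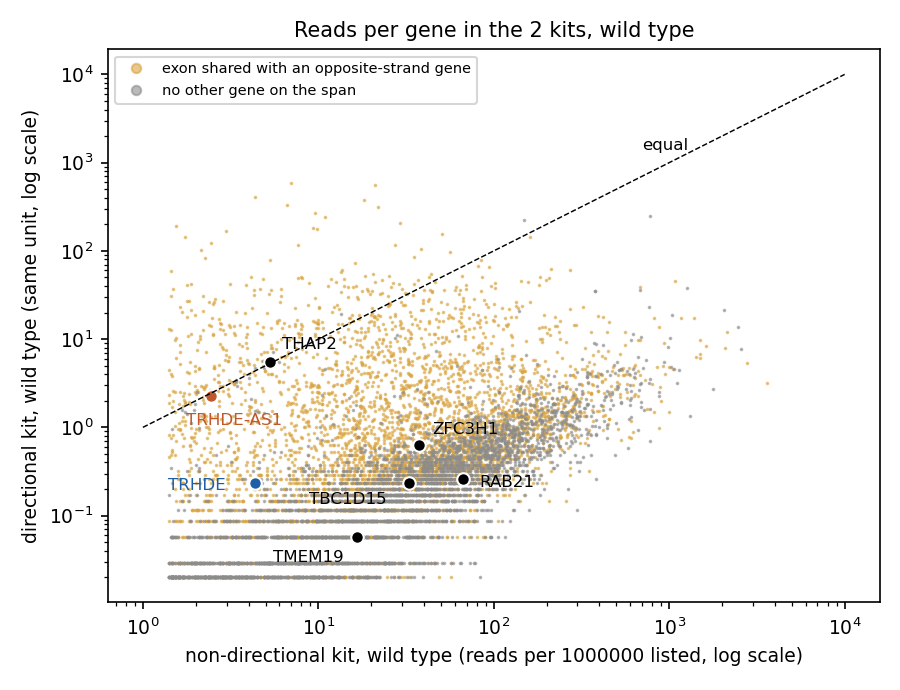
WT reads per 1000000 listed reads of each gene in the non-directional kit (horizontal, log scale) and in the directional kit (vertical, log scale), summed over 3 libraries each, for genes with at least 50 WT reads; genes with no directional read are drawn along the bottom, and the dashed line marks equal values. TRHDE-AS1 (93.2%) and THAP2 (104%) lie near the line, while TRHDE (5.29%), RAB21, TMEM19, TBC1D15 and ZFC3H1 lie well below it.

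TRHDE was lower in the KO in the non-directional libraries. It held 47, 49 and 59 reads in WT replicates 1, 2 and 3, and 14, 16 and 6 in the corresponding KO replicates. Every WT library was above every KO library, and KO replicate 3 was the lowest of the 6. How many of all genes separate in this way was not counted, so nothing is read from the separation, here or below. The level was 5.49 ± 0.85 CPM in WT and 1.22 ± 0.55 CPM in KO (SD, n = 3 each), and the fitted log2 fold change of -2.16 (SE 0.24) left 22.3% of the WT level. In this comparison 25.9% of the 13778 genes tested were lower in the KO at an adjusted p under 0.05 and 25.5% were higher; the pair was chosen on the same comparison, so nothing is read from it beside those shares. The fold change of TRHDE had 230 genes below it, or 1.67% of those tested. In level it was a low gene, with 21.6% of the genes tested below it in WT and a median of 27.8 CPM over all of them.

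The reads counted for TRHDE-AS1 were lower too, by less. Strand is lost in these libraries, and the exons of TRHDE-AS1 lie inside the span of TRHDE. RNA of the TRHDE strand over those exons would be counted here as well, and how much there was of it was not tested. TRHDE-AS1 held 29, 27 and 31 reads in the 3 WT and 13, 17 and 8 in the 3 KO non-directional libraries. Again the groups did not overlap and KO replicate 3 was lowest, as it was for TRHDE. The level was 3.07 ± 0.24 CPM in WT and 1.28 ± 0.47 CPM in KO (SD, n = 3 each), and the fitted log2 fold change of -1.25 (SE 0.27) left 41.9% of the WT level. Of all genes tested, 436 (3.16%) had a lower fold change. Since fewer cells with the RNA and less RNA per cell look alike in bulk RNA, these values do not tell them apart, here or below.

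The directional tables changed the order of the pair. TRHDE held 0, 5 and 3 reads in the WT and 0, 3 and 1 in the KO directional libraries, so it did not pass the filter on low counts, and the groups overlapped. With TRHDE kept in the fit its log2 fold change was -0.88 with an SE of 0.98, from 4.61 ± 4.11 CPM in WT to 2.49 ± 2.83 CPM in KO (SD, n = 3 each), most of them at or below the limit of 3 counts; it was -2.12 without KO replicate 2 and -0.18 without WT replicate 2. TRHDE-AS1 held 23, 29 and 27 reads in WT and 6, 5 and 0 in KO. All WT libraries were above all KO libraries, and KO replicate 3 had no read, which allows up to 3. The reads named TRHDE-AS1 went from 46.3 ± 7.0 CPM to 6.49 ± 5.64 CPM (SD, n = 3 each). Their log2 fold change was -2.75 (SE 0.39), or 14.9% of the WT level. The strand of the directional reads was not tested under either name. The value of TRHDE is thus not read as a change of its RNA, nor that of TRHDE-AS1 as a change of the antisense RNA. Of the 4745 genes tested, 13 (0.274%) had a lower fold change than TRHDE-AS1. The pair was chosen on this comparison too, so nothing is read from that rank. Of these 4745 genes, 8.54% were lower in the KO past the threshold and 7.67% higher. CPM are relative to the gene counts, a small part of the listed reads in this kit, so the CPM of the 2 kits are not on one scale.

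The values per 1000000 listed reads are given for both kits, which do not count alike. Non-directional tables ignore strand and cannot place the 793 shared exon bases, and the strand that the directional tables count was not tested. Reads that were not unique made up 7.07% to 7.19% of the listed reads in WT non-directional libraries. They made up 6.86% to 6.93% in KO non-directional and 0% in directional libraries. A difference between the kits is therefore not read as one of RNA level. TRHDE-AS1 was at 2.46 ± 0.18 in WT non-directional, 2.30 ± 0.35 in WT directional, 1.03 ± 0.38 in KO non-directional and 0.320 ± 0.278 in KO directional libraries (SD, n = 3 each). In that order the first pair of groups differed by less than their spread, and the last pair did not overlap. TRHDE was at 4.39 ± 0.67 in WT non-directional, 0.979 ± 0.444 in KO non-directional, 0.229 ± 0.203 in WT directional and 0.124 ± 0.139 in KO directional libraries (SD, n = 3 each). Its directional groups overlapped each other and lay below both non-directional groups. Per kb of exon not shared by the pair, TRHDE was at 0.492 ± 0.076 and TRHDE-AS1 at 0.385 ± 0.030 CPM per kb in WT non-directional libraries, and at 0.109 ± 0.050 and 0.161 ± 0.059 in the KO (SD, n = 3 each), so TRHDE had the higher mean in WT and TRHDE-AS1 in KO, where the SDs overlap.

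**Figure D3:**
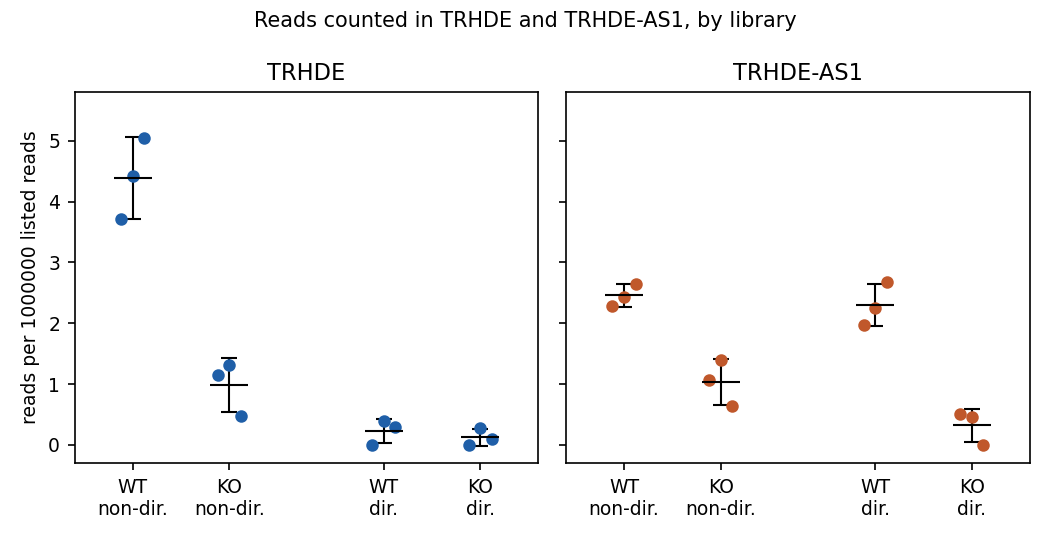
Reads per 1000000 listed reads of TRHDE (left) and TRHDE-AS1 (right) in each of the 12 libraries, by genotype and kit; points are libraries, and bars show the mean ± SD (n = 3). In WT the mean of TRHDE is 4.39 for the non-directional and 0.229 for the directional kit, that of TRHDE-AS1 is 2.46 and 2.30, and both are lower in KO than in WT within the non-directional kit.

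Non-directional tables cannot place the shared exon bases, and the strand that the directional tables count was not tested. Shares are thus set against each other within a kit only. The share of the reads of the pair that were counted for TRHDE-AS1 needs no normalization between libraries. It was 38.2% of 76 reads (exact 95% confidence interval 27.2% to 50.02%), 35.5% of 76 (24.9% to 47.3%) and 34.4% of 90 (24.7% to 45.2%) in the WT non-directional libraries. In the KO non-directional libraries it was 48.1% of 27 reads (28.7% to 68.1%), 51.5% of 33 (33.5% to 69.2%) and 57.1% of 14 (28.9% to 82.3%). The KO shares all exceeded the WT shares, with intervals that overlap in every pair of libraries. In the WT directional libraries the share was 100% of 23 reads (85.2% to 100%), 85.3% of 34 (68.9% to 95.05%) and 90.0% of 30 (73.5% to 97.9%). The KO directional libraries held 6, 8 and 1 reads of the pair in all, with shares of 100%, 62.5% and 0%, too few to place them. Summed over libraries, the share was 36.0% in WT and 51.4% in KO for the non-directional kit, and 90.8% and 73.3% for the directional kit.

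Other sense and antisense pairs were counted to set the pair among its kind. The tables list 1063 genes named as the -AS1 of an opposite-strand gene, and in 178 of these pairs both genes passed the filter in the non-directional tables, the TRHDE pair included. Both genes were lower in the KO past the threshold in 13 pairs, both were higher in 9, and they went in opposite directions in 6, while 1 gene passed in 90 and neither did in 60. These counts stand beside 25.9% of all genes tested that were lower and 25.5% that were higher, and nothing particular to such pairs is read from them. Both were at least 2-fold lower in 4 pairs, namely TRHDE, PSMB8 (a catalytic subunit of the immunoproteasome), SERTAD4 and DCST1 with their -AS1 genes. Reads of overlapping genes on opposite strands cannot be told apart in these unstranded libraries where exons coincide. The same holds where exons of 1 gene lie in introns of the other.

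The rest of the M1 aminopeptidase family was measured next to TRHDE. Of its 11 other members, 9 passed the filter in the non-directional libraries, and 6 of the 9 changed at an adjusted p under 0.05 (edgeR quasi-likelihood test), 2 higher and 4 lower, where 51.5% of all genes tested changed. Their median log2 fold change was -0.21, against -0.0012 over all genes tested. ANPEP, the membrane alanyl aminopeptidase CD13, rose from 10.5 ± 0.4 CPM to 28.5 ± 2.0 CPM (SD, n = 3 each), which was 1.44 on the log2 scale (SE 0.09, adjusted p = 9.8e-24). NPEPPS, the puromycin-sensitive aminopeptidase of the cytosol, rose by 0.25 on the log2 scale (SE 0.04, adjusted p = 5.3e-07). RNPEP, aminopeptidase B, fell by 0.51 (SE 0.05, adjusted p = 3.1e-14), its paralog RNPEPL1 fell by 0.52 (SE 0.06, adjusted p = 5.2e-12), and ERAP1, which trims peptides in the endoplasmic reticulum, fell by 0.48 (SE 0.09, adjusted p = 1.2e-06). C9orf3, which encodes aminopeptidase O, was lower by a log2 change of -0.21 (SE 0.09, adjusted p = 0.034), a call lost under several alternatives given below.

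Members of the family that did not pass the threshold included its highest by CPM, LTA4H, the leukotriene A4 hydrolase, at 160 ± 4 CPM in WT and 155 ± 4 in KO (SD, n = 3 each; log2 fold change -0.05, SE 0.04, adjusted p = 0.229). LNPEP, which encodes oxytocinase, had a log2 fold change of 0.04 (SE 0.07, adjusted p = 0.674). ENPEP, the membrane glutamyl aminopeptidase, had one of -0.60 (SE 0.27, adjusted p = 0.052). ERAP2 and LVRN were below the filter with 25 and 8 reads in all 6 libraries. Per kb of all annotated exons TRHDE was the ninth of the 10 measured family members in WT, at 0.459 ± 0.071 CPM per kb, between LNPEP at 1.92 ± 0.13 and ENPEP at 0.320 ± 0.019, and the lowest in KO, at 0.102 ± 0.046, below ENPEP at 0.212 ± 0.062 (SD, n = 3 each). In the directional tables ERAP1 and LTA4H passed the filter, with log2 fold changes of 0.05 and 0.59 (adjusted p = 0.758 and 0.232, edgeR quasi-likelihood test). Each shares exons with 2 genes on the opposite strand, and whether these values are of ERAP1 and LTA4H themselves was not tested.

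**Figure D4:**
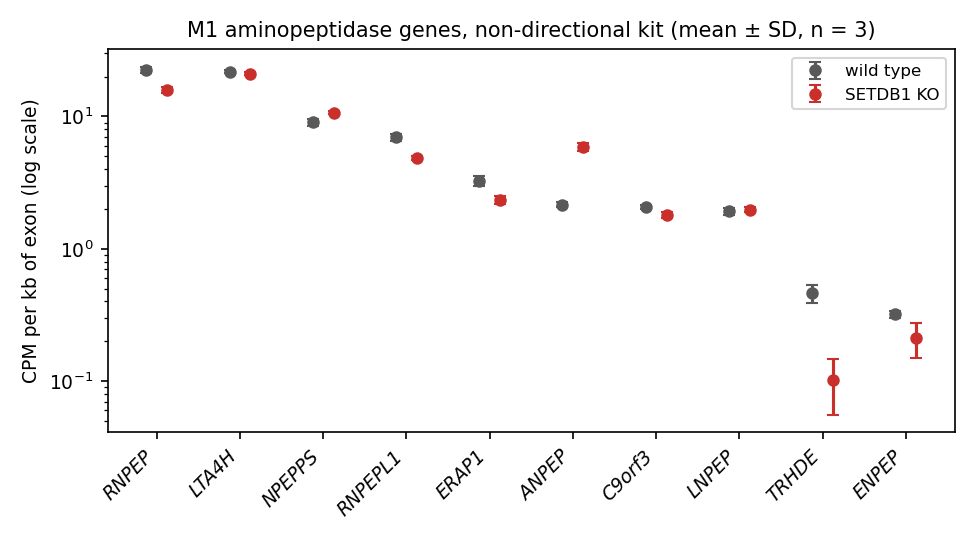
CPM per kb of annotated exon (log scale) of the 10 M1 aminopeptidase genes that passed the filter in the non-directional libraries, in WT (grey) and KO (red), as mean ± SD (n = 3 each), ordered by the WT level. TRHDE and ENPEP are the lowest in both genotypes, ANPEP lies clearly higher in KO, and NPEPPS lies higher in KO by less.

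Genes of the hormone that TRHDE cleaves had almost no reads in these cells. TRH, which encodes the precursor of thyrotropin-releasing hormone, had 1 read in all WT and 3 in all KO non-directional libraries, and its receptor TRHR had 1 and 1. TSHB, the thyrotropin beta subunit, had none, and the thyrotropin receptor TSHR had 1 and 2. Of 15 genes of the TRH and thyroid axis 5 passed the filter. THRB, the thyroid hormone receptor beta, fell from 15.5 ± 1.5 to 8.15 ± 1.48 CPM (log2 fold change -0.93, SE 0.12, adjusted p = 1.9e-10; SD, n = 3 each). THRA, the highest of the list at 71.5 ± 1.3 CPM in WT and 68.2 ± 0.4 in KO (SD, n = 3 each), did not pass (adjusted p = 0.265).

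Enzymes that make, modify or cut peptide hormones were mostly present. Of 11 genes 8 passed the filter and 3 fell, none rising past the threshold, with a median log2 fold change of -0.14; over all genes tested 25.9% were lower and 25.5% higher, with a median of -0.0012. CPE, carboxypeptidase E, fell by 1.21 on the log2 scale (SE 0.09, adjusted p = 6.5e-21). PAM, which amidates the end of peptides such as TRH, fell by 1.03 (SE 0.10, adjusted p = 1.1e-14). FURIN, a proprotein convertase, fell by 0.30 (SE 0.05, adjusted p = 5.9e-07). PGPEP1, the cytosolic pyroglutamyl peptidase I, which is not related to TRHDE in sequence but removes the same kind of residue, was at 10.3 ± 1.9 CPM in WT and 9.04 ± 0.13 in KO (SD, n = 3 each; adjusted p = 0.268). QPCT, which forms the pyroglutamyl end of such peptides, had a log2 fold change of -0.11 (adjusted p = 0.740), and CPD, the highest of this list, one of -0.02 (adjusted p = 0.759). PCSK1 and PCSK2, the convertases of neuroendocrine cells, had 0 and 1 reads in all.

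Few of the neighbouring genes were measurable. Within 1 Mb of either end of TRHDE the tables list 26 other genes, of which 16 had no read in the non-directional libraries and 5 passed the filter, all of them upstream of TRHDE. TMEM19, with a gap of 382 kb to TRHDE, fell from 20.7 ± 2.2 to 12.9 ± 0.9 CPM (log2 fold change -0.68, SE 0.10, adjusted p = 6.3e-09; SD, n = 3 each) and was the only 1 of the 5 to pass, where 25.9% of all genes were lower. TBC1D15, a regulator of Rab GTPases and the nearest of the 5 at 160 kb, had a log2 fold change of 0.01 (SE 0.06, adjusted p = 0.872). RAB21 had one of -0.10 (SE 0.05, adjusted p = 0.082), and passed when WT replicate 2 was left out (-0.13, adjusted p = 0.015). THAP2 had one of -0.31 (SE 0.15, adjusted p = 0.089, edgeR quasi-likelihood test). In the directional tables, whose counted strand was not tested, the value under its name was -0.12 (SE 0.16, adjusted p = 0.683, same test). ZFC3H1 was at 47.1 ± 2.0 CPM in WT and 47.1 ± 3.3 in KO (SD, n = 3 each; adjusted p = 0.991). Over the 723 other genes of chromosome 12 that were tested the median log2 fold change was 0.0025, and 22.3% were lower and 23.5% higher in the KO.

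**Figure D5:**
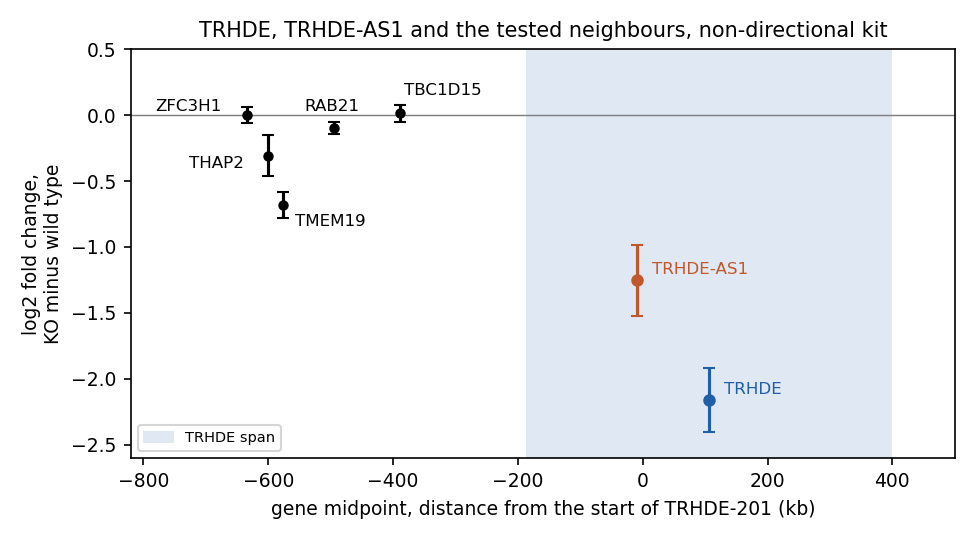
Log2 fold change of KO against WT (± SE) in the non-directional libraries for TRHDE, TRHDE-AS1 and the 5 tested genes within 1 Mb, by the distance in kb of the gene midpoint from the start of TRHDE-201; the shaded band is the span of TRHDE. TRHDE (-2.16) and TRHDE-AS1 (-1.25) lie below all 5 neighbours, of which TMEM19 (-0.68) is the lowest.

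The deposited tables of long L1 elements, a retrotransposon family, cover the region of the pair for the non-directional libraries only. They list 11 L1 loci within 1 Mb of TRHDE, 3 of them inside introns of TRHDE, and positions are given as the tables have them, on hg38. The L1PA4 element at chr12:72150398-72156542 had 1 read in WT and 1 in KO over 3 libraries each. The L1PA3 element at chr12:72514641-72520656 had 9 and 16, and the L1PA3 element at chr12:72634505-72640519 had 12 and 10. None of these 3, with 49 reads together, passed the filter, so no change was detectable at this depth. The single locus of the 11 that did pass, an L1PA2 element beyond TRHDE at chr12:73147618-73153645, had 14, 12 and 16 reads in WT and 23, 21 and 40 in KO. Its log2 fold change was 0.51 (SE 0.30, adjusted p = 0.227, limma) on the scale of log2(value + 1), where 28.4% of the 816 loci tested changed (19.1% higher and 9.31% lower in the KO). On the recovered reads per gene count it was 0.93 (adjusted p = 0.025, edgeR), where edgeR called 283 of the 816 loci tested.

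The genes whose profile over the 6 non-directional libraries lay closest to that of TRHDE, by the root mean square distance of centred log2 CPM, were TNMD (0.239), PAX6 (0.251), C1QTNF1 (0.270), SEMA6D (0.273) and DHRS2 (0.280). All 5 were lower in the KO, which their choice largely fixes, with fitted log2 fold changes from -2.73 for TNMD to -1.97 for SEMA6D. PAX6, a transcription factor of eye and brain development, was at 6.58 ± 0.31 CPM in WT and 1.62 ± 0.38 in KO (SD, n = 3 each). TRHDE-AS1 came 90th of 13777 genes in its distance to TRHDE (0.465), and TRHDE 1051st in its distance to TRHDE-AS1. Closest to TRHDE-AS1 were SERTM1 (0.0992), C3orf67 (0.0993), ANKRD34A (0.1105), EPHA7 (0.123), an ephrin receptor, and LINC01807 (0.152). In the directional tables the closest to TRHDE-AS1 were AL139807.1 (0.305), ST6GAL2 (0.360), C1orf21 (0.488), AC005277.1 (0.506) and Z99774.1 (0.546). These distances rest mainly on the difference between the genotypes and carry no test.

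The label of a chronic myelogenous leukemia was checked against blood lineage markers in the non-directional libraries. Of 12 markers 4 passed the filter and 5 had no read: MPO, LYZ, CD33, SPI1 and HBG1 were at 0, PTPRC (CD45) had 1 read in all, CD34 2 and GATA1 1. The other 4 were expressed: RUNX1, KIT and ITGA2B stood at 21.2, 18.9 and 13.1 CPM in WT without passing the threshold. TAL1, a transcription factor of blood stem cells, fell from 16.2 ± 0.3 to 3.23 ± 0.52 CPM (log2 fold change -2.32, SE 0.14, adjusted p = 1.6e-25; SD, n = 3 each). The summed level of the 12 ran from 67.5 to 71.5 CPM in WT and from 51.6 to 57.4 in KO. Of 6 neuron markers, a tissue where TRHDE is known, TUBB3 and SYP passed the filter (adjusted p = 0.979 and 0.573), ELAVL3 had no read and STMN2 1, and their summed level was 8.82 to 9.30 CPM in WT and 7.06 to 10.1 in KO. The part of either marker list in the values of the pair was not tested.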

How the data were processed

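The 12 libraries (3 WT and 3 KO per kit) were grouped by their titles. For each library the authors deposited raw counts per gene, in the HTSeq layout, made per the submitters' processing notes with Trim Galore 0.4.4, STAR 2.6.0a, SAMtools 1.9, Picard 2.23.8 and HTSeq 0.11.1 on hg38. Parameters and the strand setting are not given in the sources used here, and the publication named in the header does not describe these libraries. A normalized signal per L1 locus (6437 loci) was also deposited, with the 6 non-directional libraries only; all non-zero values were whole multiples of the value of 1 read (100% within 0.01 reads), and reads were recovered by division.

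All 58735 gene IDs matched GENCODE 29. Each kit was fitted alone with edgeR 4.0.16 in R 4.3.3 (TMM, filterByExpr with a minimum count of 10 and total of 15, quasi-likelihood F-test, Benjamini-Hochberg over all genes tested, threshold 0.05); standard errors, the absolute log2 fold change over the square root of F, are approximate. Lines for reads in no gene, in several genes or not unique were left out of library sizes. Non-directional tables placed 4.00% to 4.40% of listed reads in no gene. L1 loci were tested with limma 3.58.1 on log2(deposited signal + 1), which understates changes of low loci. On simulated counts at 2-fold and 4-fold changes, the fit recovered 88.8% and 100% of changed genes in the non-directional and 78.9% and 100% in the directional design. Shares carry exact (Clopper-Pearson) 95% intervals. Promoter sequences are RefSeq's, on GRCh38.p14, and both members matched. Alternatives were DESeq2 1.42.0 size factors and Wald test, no low-count filter, a replicate block, each replicate left out, the listed reads as denominator, and, chosen after seeing the data, the KO non-directional libraries summed as 1. Replicates were compared by chi-square, given per degree of freedom, on genes whose reads in both libraries summed to 20 or more. The WT non-directional value was 1.03 for replicates 1 and 3, and 1.82 and 2.00 for the pairs with replicate 2. The directional value was 1.05 to 1.09 in WT. In directional KO it was 1.05 for replicates 1 and 2, and 1.24 and 1.20 for the pairs with replicate 3. The 3 KO non-directional libraries differed by less than the sampling noise (0.956 to 0.991), so they show no spread beyond counting and could be repeats of 1 sample. They were counted as 3 because the titles list 3 biological replicates and the comparison cannot tell repeats from closely matched samples when no pair differs; values with them summed as 1 are in the closing section.

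The members and gene lists were chosen with earlier results of these data known. Genes named were SETDB1, all genes within 1 Mb that passed the filter, list members past the threshold and the highest of each list, antisense pairs, and the 5 closest profiles of each member; ENPEP, LNPEP, PGPEP1, QPCT and genes at or near 0 reads were named after their values were seen. Of the TRH and thyroid axis, 2 genes that passed the filter are not reported here, nor is the count of that list.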

Additional observations from a re-analysis of the deposited data

How the results depend on the processing

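Leaving out each replicate in turn gave log2 fold changes from -2.43 to -1.82 for TRHDE and from -1.53 to -0.99 for TRHDE-AS1 in the non-directional kit, both weakest without KO replicate 3, and from -3.23 to -2.21 for TRHDE-AS1 in the directional kit. For TRHDE in the directional kit the range was -2.12 to -0.18, with the lowest value without KO replicate 2 and the highest without WT replicate 2 (main value -0.88 from 12 reads in all). Every other alternative moved the pair by less than the spread between replicates: -2.18 to -2.16 and -1.26 to -1.25 in the non-directional kit, -0.91 to -0.81 and -2.80 to -2.74 in the directional kit. The TRHDE-AS1 share of the reads of the pair ranged, with 1 replicate left out, from 34.9% to 36.8% (WT) and 50% to 53.2% (KO) for the non-directional kit, and from 87.5% to 94.3% (WT) and 55.6% to 85.7% (KO) for the directional kit. Genes changed numbered 6394 to 7134 (non-directional) and 598 to 688 (directional kit) with 1 replicate left out; the DESeq2 Wald test called 5359 and 330 (against 7089 and 769), and the cause of the second drop was not tested. Genes near TRHDE changed were 1 to 2 and M1 genes 5 to 7 with 1 replicate left out, and SETDB1 stayed between -2.45 and -2.35. No L1 locus near TRHDE was called with limma in any setting. EdgeR on the recovered reads called 1, and called 283 of all 816 loci it tested.

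The replicate numbers shared by WT and KO come from the titles only, and deviations from the group means were not shared between libraries of 1 number (mean correlation -0.010 and -0.0016 in the 2 kits). With the replicate block 7074 and 712 genes changed, the log2 fold changes were -2.17 and -1.26 for TRHDE and TRHDE-AS1 in the non-directional and -0.81 and -2.74 in the directional kit, SETDB1 was at -2.39, and 6 M1 genes, 1 gene near TRHDE and 0 L1 loci changed, so that no other call changed. With the KO non-directional libraries summed as 1, 6030 genes changed and the pair stood at -2.16 and -1.25. Over 33 single genes and 363 alternatives, 350 kept their call, 7 lost it and 6 gained it, with no change of sign: C9orf3 lost its call in 7 (adjusted p 0.052 to 0.152), while ITGA2B, QPCTL, RAB21 and ENPEP gained one when 1 library was left out. TRHDE held at most 5 reads in any directional table, and the strand that these tables count was not tested. Both limit what they show of TRHDE.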
